A study of Rattus norvegicus with 20 samples.

Results

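The genes described here encode the voltage-gated sodium and calcium channels of excitable cells: the pore subunits and the auxiliary subunits that travel with them. They were taken by symbol, as every gene named Scn followed by a digit or starting with Cacna, Cacnb or Cacng, without Cacng2, Cacng3 and Cacng8, which serve AMPA receptors. This gave 33 genes of the 14217 named on the array, read by 48 of its 31042 probe sets that are not controls. Each gene was represented by its brightest probe set on average over all arrays. A probe set is a group of short DNA probes for 1 transcript, and its level is given as the log2 of the deposited signal. Of the 33 genes, 18 had a mean above the filter on low signal (6.62 on the log2 scale) and were tested, and 15 did not. The member just above the filter was Scn8a, with a mean of 6.66, and those just below it were Cacna1h and Cacng4, both at 6.55.

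The samples were 10 male Sprague Dawley rats that breathed 2% isoflurane in oxygen for 15 minutes (1.4 MAC, the unit of anaesthetic potency) and 10 that breathed oxygen alone for the same time. The rats were 20 weeks old and weighed 250 to 300 g, and tissue was taken after 6 hours of recovery. Total RNA from each rat was hybridised to 1 Affymetrix array. The p-values therefore reflect variation between rats together with that of the tissue taken and of array handling, which cannot be told apart. Both groups breathed oxygen, and rats breathing air were not analysed here.

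The tissue was labelled brain cortex, and the markers went against that label on 11 of the 20 arrays. Pcp2 is a marker of Purkinje cells, the output neurons of the cerebellum, and its level was 13.60 to 14.17 on these 11 arrays and 4.46 to 10.67 on the other 9. Fezf2, which marks deep-layer neurons of the cortex, was at 1.31 to 6.96 on the 11 arrays and at 8.69 to 9.43 on the 9. Neurod6, another marker of cortical projection neurons, did not part the arrays as clearly, with means of 10.04 and 10.05 on the isoflurane and oxygen arrays of the 11 and of 10.11 and 10.88 on those of the 9. The arrays are called Pcp2-high and Pcp2-low here, parted at a Pcp2 level of 12. The Pcp2-high set held isoflurane replicates 1, 3, 7, 8 and 9 and oxygen replicates 5 to 10. The Pcp2-low set held isoflurane replicates 2, 4, 5, 6 and 10 and oxygen replicates 1 to 4.

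A second feature concerned 4 arrays of the Pcp2-low set. Isoflurane replicates 2, 4, 5 and 6 stood apart from the rest, with a mean correlation with each other of 0.978 to 0.980 over the tested probe sets and of 0.890 to 0.906 with the other Pcp2-low arrays. Their log2 ratio of 3' over 5' signal of the Actb control transcript, a sign of RNA or labelling quality, was 2.30 to 2.86. It was 1.21 on isoflurane replicate 10 and 1.21 to 1.98 on the oxygen arrays of that set. The same ratio of the Gapdh control transcript did not set the 4 arrays apart, at 0.24 to 0.33 on them, 0.30 on isoflurane replicate 10 and 0.30 to 0.48 on the oxygen arrays. The summed level of 8 cerebellar markers was also lower on them, at 10.36 to 10.59, against 10.95 to 11.91 on the oxygen arrays of the set. Calls of the tested channel genes are therefore given with and without these 4 arrays. Changes of cell type markers and partner genes within the Pcp2-low set are given with them only.

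**Figure D1:**
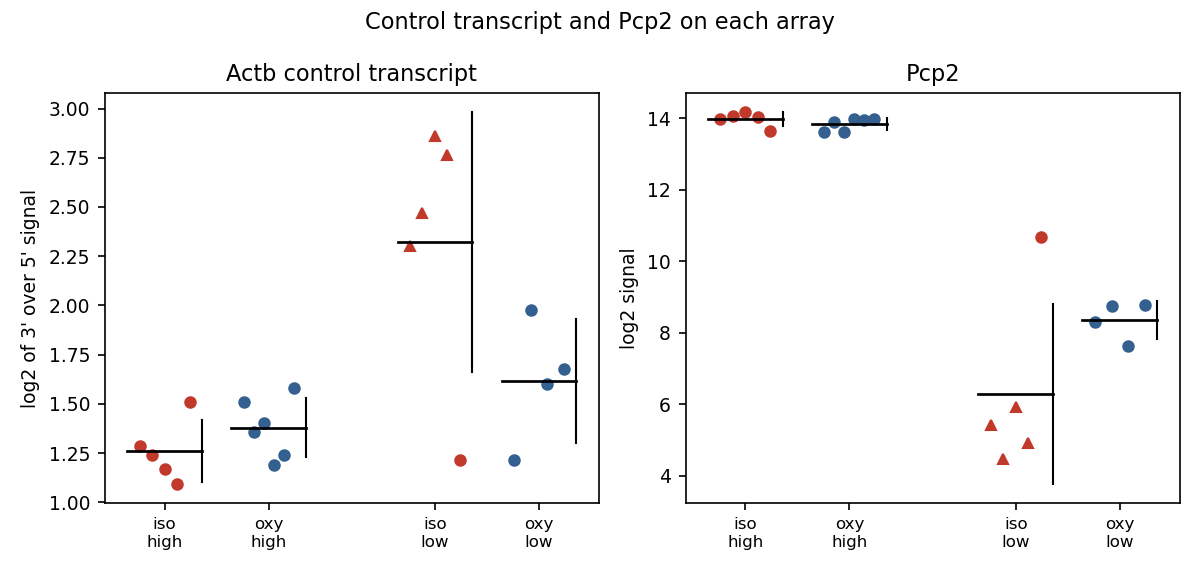
Log2 of 3' over 5' signal of the Actb control transcript (left panel) and log2 signal of Pcp2 (right panel) on each of the 20 arrays, for isoflurane (iso, red) and oxygen (oxy, blue) rats of the Pcp2-high and Pcp2-low sets. Horizontal lines are means, vertical bars are 1 SD, and triangles are isoflurane replicates 2, 4, 5 and 6, which lie at 2.30 to 2.86 in the left panel, above every other array.

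A voltage-gated sodium channel is a large pore protein that opens when the membrane depolarises and starts the action potential, with small beta subunits that set its gating and its place in the membrane. A voltage-gated calcium channel is built around a related pore protein, with a cytoplasmic beta subunit and an extracellular alpha2delta subunit that carry it to the surface and tune it. Calcium entering through these channels triggers transmitter release at nerve terminals, and volatile anaesthetics are known to reduce sodium and calcium currents of both families.

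The promoter windows shown are those of genes on which the results below turn, among those with a window in RefSeq's table. They are Cacnb3, which was lower after isoflurane across both sets, and Cacna1d, whose change differed between the sets. The other 4 are genes whose levels separated the sets. Windows were matched by gene ID for 23 of the 33 genes. Each line gives the 250 bases before the gene's start as RefSeq annotates it on the assembly GRCr8, 5' to 3' on the gene's own strand. For Cacna1a and Cacna2d3 the bases after that start begin with ATG, the letters of a start codon, so these windows may lie within the transcript. Whether the windows hold the site where transcription begins was not tested. Capitals mark GC boxes (GGGCGG on either strand, overlaps counted), the motif bound by Sp1-type factors.
Cacnb3: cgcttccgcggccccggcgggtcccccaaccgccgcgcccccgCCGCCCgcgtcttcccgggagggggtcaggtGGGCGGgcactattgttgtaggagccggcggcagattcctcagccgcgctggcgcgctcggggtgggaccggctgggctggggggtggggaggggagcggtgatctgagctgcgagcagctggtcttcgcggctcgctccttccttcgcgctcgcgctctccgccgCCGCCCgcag
Cacna1d: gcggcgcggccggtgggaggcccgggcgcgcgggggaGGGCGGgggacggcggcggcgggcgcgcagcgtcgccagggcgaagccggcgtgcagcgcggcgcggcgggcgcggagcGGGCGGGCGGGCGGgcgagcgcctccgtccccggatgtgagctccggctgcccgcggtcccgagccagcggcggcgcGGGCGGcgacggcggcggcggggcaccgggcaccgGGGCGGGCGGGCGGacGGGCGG
Scn3a: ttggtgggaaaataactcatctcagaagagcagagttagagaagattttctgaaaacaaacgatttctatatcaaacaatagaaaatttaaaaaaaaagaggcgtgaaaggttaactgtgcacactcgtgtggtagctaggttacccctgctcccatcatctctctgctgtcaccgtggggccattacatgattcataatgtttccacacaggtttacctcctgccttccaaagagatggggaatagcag
Cacna2d3: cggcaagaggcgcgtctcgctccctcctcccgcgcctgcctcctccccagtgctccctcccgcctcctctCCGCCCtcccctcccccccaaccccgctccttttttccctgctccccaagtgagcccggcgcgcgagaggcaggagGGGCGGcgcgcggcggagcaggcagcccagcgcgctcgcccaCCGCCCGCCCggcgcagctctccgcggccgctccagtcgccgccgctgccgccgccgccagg
Scn2b: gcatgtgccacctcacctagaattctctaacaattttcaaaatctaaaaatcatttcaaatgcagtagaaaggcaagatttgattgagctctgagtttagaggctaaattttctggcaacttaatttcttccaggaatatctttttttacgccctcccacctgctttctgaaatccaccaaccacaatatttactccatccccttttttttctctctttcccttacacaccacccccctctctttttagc
Cacna1a: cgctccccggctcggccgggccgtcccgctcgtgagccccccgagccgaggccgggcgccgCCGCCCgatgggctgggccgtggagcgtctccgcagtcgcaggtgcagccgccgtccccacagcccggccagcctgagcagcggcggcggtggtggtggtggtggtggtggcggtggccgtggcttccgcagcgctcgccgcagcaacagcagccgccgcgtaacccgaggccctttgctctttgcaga
These windows are chr7:131666301-131666550 on the plus strand for Cacnb3, chr16:5527550-5527799 on the minus strand for Cacna1d, chr3:70666199-70666448 on the minus strand for Scn3a, chr16:4918900-4919149 on the minus strand for Cacna2d3, chr8:54322133-54322382 on the plus strand for Scn2b and chr19:40650469-40650718 on the minus strand for Cacna1a. Cacna1d had 9 GC boxes and 88.8% G or C, Cacna2d3 had 4 and 78.8%, Cacnb3 had 3 and 76.4%, and Cacna1a had 1 and 76.8%. Scn2b (38.8%) and Scn3a (41.6%) had none. A GC box was found in 11 of the 23 windows of these genes, against 32.4% of all 27457 windows in the table. The 23 windows had a median of 59.2% G or C, against 52.0% for all windows. Whether GC boxes were more frequent than in windows of like G and C content was not tested. In the window extended to 50 bases past the start, neither the cAMP response element TGACGTCA (1.91% of all promoters) nor the clock E-box CACGTG (6.65%) was found in any of the 23. The sets of genes that were higher and lower in the Pcp2-high arrays each held a window with GC boxes and a window without.

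Across both sets, Cacnb3 was lower and Scn1a was higher after isoflurane. The comparison used limma with the array set as a block, over all 18625 tested probe sets, with a Benjamini-Hochberg adjusted p under 0.05 as the threshold. These were 2 of the 18 tested channel genes, against 7.37% of all tested probe sets (1 of 18 against 4.79% for lower, 1 of 18 against 2.58% for higher). Neither call held without the 4 arrays named above, a fit in which limma called 0 of 18625 probe sets (0%), while 3016 probe sets and 5 channel genes had an unadjusted p under 0.05. With no term for the set, none of the 18 passed, against 0.397% of all tested probe sets (0.317% lower and 0.0805% higher), and 3 had an unadjusted p under 0.05 in limma. The median change of the 18 genes was 0.07 on the log2 scale, against 0.00 for all tested probe sets, and 11 of the 18 had a change above 0.

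Cacnb3 encodes a cytoplasmic beta subunit that binds the pore of high-voltage-activated calcium channels and helps bring it to the membrane. In the Pcp2-high set its log2 level was 9.41, 9.57, 9.23, 9.27 and 10.64 on isoflurane replicates 1, 3, 7, 8 and 9, against 9.96, 10.30 and 10.49 (lowest, median and highest of 6) on oxygen arrays. Of the isoflurane arrays 4 lay below every oxygen array, and replicate 9 lay above every oxygen array. Its level in the Pcp2-low set was 9.86, 9.69, 9.79, 9.67 and 10.35 on isoflurane replicates 2, 4, 5, 6 and 10, against 11.18, 11.04, 10.88 and 11.54 on the 4 oxygen arrays. There the groups did not overlap, and all 5 isoflurane arrays lay below the lowest oxygen array, as was so for 6.52% of all tested probe sets. By its brightest probe set no other tested channel gene did so. Another tested probe set of Cacnb1 did, at 8.24 to 8.88 after isoflurane and 9.18 to 9.84 after oxygen.

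The blocked change of Cacnb3 was -0.93 ± 0.16 SE on the log2 scale (limma, adjusted p = 0.00796). Within the Pcp2-high set it was -0.64 ± 0.22 SE (limma, adjusted p = 0.331), and within the Pcp2-low set it was -1.28 ± 0.17 SE (limma, adjusted p = 0.00578). The difference between these 2 changes did not pass the threshold (0.65 ± 0.30 SE, limma, adjusted p = 0.172). Without isoflurane replicates 2, 4, 5 and 6 the blocked change was -0.68 ± 0.18 SE, below 0 as with them but no longer past the threshold (limma, adjusted p = 0.141). Leaving out single arrays kept it past the threshold in 20 of 20 blocked fits. Over 11 alternatives, that one included, the blocked change ran from -1.004 to -0.68, with an adjusted p in limma from 0.000498 to 0.141, past the threshold in 8. Within the Pcp2-high set, leaving out isoflurane replicate 9 alone brought the change to -0.89 and past the threshold (limma, adjusted p = 0.00488), in a fit that then called 1086 probe sets in place of 0. Cacnb3 was read by 1 probe set. In these bulk samples fewer cells of a type and less RNA per cell cannot be told apart.

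Scn1a encodes the sodium channel pore that carries much of the spike current of fast-spiking inhibitory interneurons and, with others, of Purkinje cells. Its level in the Pcp2-high set was 10.90, 10.91, 10.96, 10.94 and 10.61 on isoflurane replicates 1, 3, 7, 8 and 9, against 10.47, 10.54 and 11.04 (lowest, median and highest of 6) on oxygen arrays. On Pcp2-low arrays it was 11.31, 11.75, 11.44, 11.65 and 11.10 on isoflurane replicates 2, 4, 5, 6 and 10, against 11.19, 10.78, 10.84 and 10.72 on oxygen arrays. The groups overlapped in both sets, by 1 isoflurane array in the Pcp2-low set, where replicates 2, 4, 5 and 6 all lay above the highest oxygen array.

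The blocked rise of Scn1a was 0.37 ± 0.10 SE (limma, adjusted p = 0.0308). Within the Pcp2-high set it was 0.22 ± 0.11 SE (limma, adjusted p = 0.422), and within the Pcp2-low set 0.57 ± 0.15 SE (limma, adjusted p = 0.0233). It was 0.22 ± 0.10 SE without the 4 arrays (limma, adjusted p = 0.297). Over 11 alternatives, that one included, it ran from 0.22 to 0.42, with an adjusted p in limma from 0.012 to 0.297, past the threshold in 8. The blocked call was kept in 14 of 20 fits with single arrays left out, and was lost without isoflurane replicate 4, 5 or 6 or oxygen replicate 2, 3 or 4 (adjusted p up to 0.071). The call within the Pcp2-low set was kept in 3 of 9 such fits (limma, adjusted p from 0.00293 to 0.0664). Within the Pcp2-low set Gad1 and Gad2, the enzymes that make GABA in inhibitory neurons, rose too, by 0.35 and 1.10 (limma, adjusted p = 0.0158 and 0.0083), while the neuropeptide gene Sst of another interneuron class fell by 0.53 (limma, adjusted p = 0.0286). The other interneuron markers, Pvalb of fast-spiking cells (-0.03) and Vip (0.02), did not pass (limma, adjusted p = 0.925 and 0.946). The summed level of the 5 interneuron markers in that set was 13.73 to 13.91 after isoflurane, against 13.71 to 13.74 after oxygen. The part of cell composition in the change of Scn1a was not tested.

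**Figure D2:**
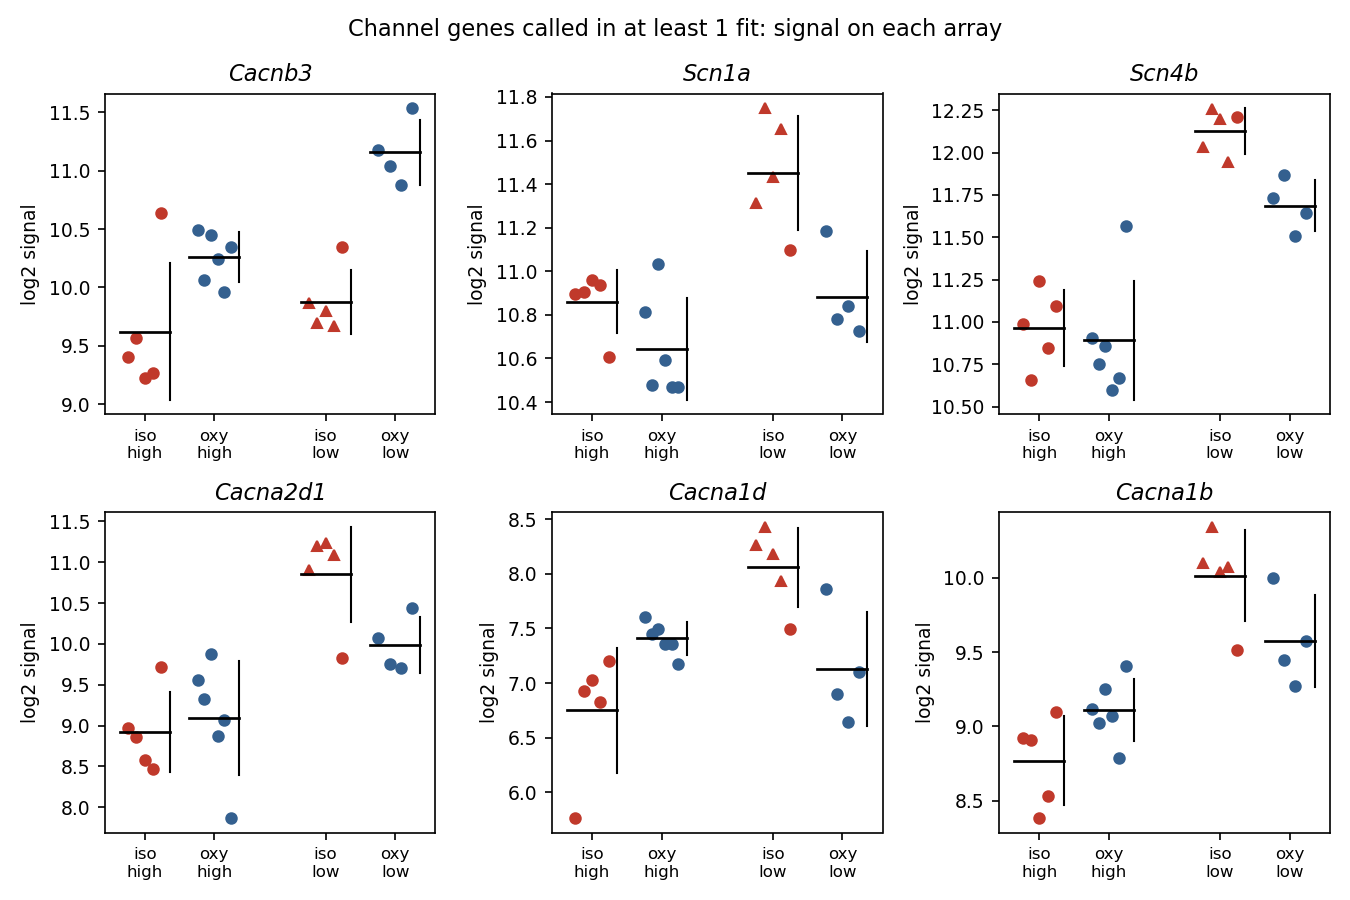
Log2 signal on each array for the 6 channel genes past the threshold in at least 1 fit, for isoflurane (iso, red) and oxygen (oxy, blue) rats of the Pcp2-high (high) and Pcp2-low (low) sets. Horizontal lines are means, vertical bars are 1 SD, and triangles are isoflurane replicates 2, 4, 5 and 6 of the Pcp2-low set. In the Pcp2-low set all isoflurane arrays lie below the oxygen arrays for Cacnb3 and above them for Scn4b, and the other 4 genes overlap.

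Within the Pcp2-low set, 5 of the 18 tested channel genes passed the threshold, 1 lower and 4 higher, against 18.6% of all tested probe sets (7.42% lower and 11.2% higher). The 4 that rose were Scn1a, Scn4b, Cacna2d1 and Cacna1d, and Cacnb3 fell. The median change of the 18 genes was 0.23, against -0.00 for all tested probe sets, with 14 above 0. With each array centred on its median, all tested probe sets shifted to a median of -0.21, calls turned to 3776 lower and 1467 higher in place of 1382 and 2087, and the channel genes were 9 above 0 and 9 below it with a median of 0.02. Of the 5 genes, Cacnb3 (-1.49) and Cacna1d (0.73) still passed under that centring, and Cacnb3 alone did with the 3' over 5' ratio as a covariate (-1.09, limma, adjusted p = 0.0195). Without isoflurane replicates 2, 4, 5 and 6, which leaves replicate 10 alone against 4 oxygen arrays, limma called 0 probe sets (876 at an unadjusted p under 0.05) and none of the 5 genes.

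Scn4b encodes a sodium channel beta subunit associated with resurgent current in Purkinje cells and with striatal neurons. Its level in the Pcp2-low set was 12.03, 12.26, 12.20, 11.94 and 12.21 on isoflurane replicates 2, 4, 5, 6 and 10, against 11.73, 11.87, 11.51 and 11.64 on oxygen arrays. It was the only tested channel gene with every isoflurane array above every oxygen array of that set, as were 6.70% of all tested probe sets. The rise was 0.44 ± 0.10 SE (limma, adjusted p = 0.0166), and it passed in 9 of 9 fits with single arrays left out. With arrays centred on their medians it was 0.23 (limma, adjusted p = 0.189), and with the 3' over 5' ratio as a covariate 0.45 (limma, adjusted p = 0.0514), and it passed in 6 of 9 alternatives in all. On Pcp2-high arrays its level was 10.99, 10.66, 11.24, 10.85 and 11.09 on isoflurane replicates 1, 3, 7, 8 and 9, against 10.60, 10.80 and 11.57 (lowest, median and highest of 6) on oxygen arrays, with a change of 0.07 ± 0.16 SE (limma, adjusted p = 0.84). The summed level of 5 striatal markers in the Pcp2-low set was 12.86 to 13.35 on isoflurane replicates 2, 4, 5 and 6 and 14.00 on replicate 10, against 13.27 to 13.88 on oxygen arrays. Among single striatal markers the changes in that set were 0.34 for Drd1, 0.19 for Adora2a and -0.49 for Ppp1r1b, none past the threshold. The part of tissue composition in the change of Scn4b was not tested.

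Cacna2d1 encodes an alpha2delta subunit, the protein bound by gabapentin. On Pcp2-low arrays its level was 10.90, 11.20, 11.23, 11.09 and 9.83 on isoflurane replicates 2, 4, 5, 6 and 10, against 10.07, 9.75, 9.70 and 10.44 on oxygen arrays. The 4 arrays that stood apart lay above all oxygen arrays, and replicate 10 lay among them. The rise of 0.86 ± 0.27 SE was just past the threshold (limma, adjusted p = 0.0492) and, of 9 fits with single arrays left out, passed only in that without isoflurane replicate 10. Without the 4 arrays the value was -0.16, and over 9 alternatives it ran from there to 1.16 and passed in 5. On Pcp2-high arrays the level was 8.97, 8.86, 8.58, 8.47 and 9.72 on isoflurane replicates 1, 3, 7, 8 and 9, against 7.87, 9.19 and 9.88 (lowest, median and highest of 6) on oxygen arrays, and the groups overlapped (change -0.18 ± 0.31 SE).

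Cacna1d and Cacna1b were the members whose isoflurane change differed between the sets, 2 of 18, both lower in the Pcp2-high set, against 10.2% of all tested probe sets in either direction and 7.61% lower. Cacna1d encodes an L-type calcium channel pore that opens at relatively negative voltages. On Pcp2-high arrays its level was 5.76, 6.92, 7.03, 6.82 and 7.21 on isoflurane replicates 1, 3, 7, 8 and 9, against 7.17, 7.41 and 7.61 (lowest, median and highest of 6) on oxygen arrays. All but 1 of those isoflurane arrays, replicate 9, lay below the oxygen arrays. On Pcp2-low arrays it was 8.26, 8.43, 8.18, 7.94 and 7.50 on isoflurane replicates 2, 4, 5, 6 and 10, against 7.86, 6.90, 6.64 and 7.10 on oxygen arrays. There the 4 arrays that stood apart lay above all oxygen arrays and replicate 10 within their range.

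The change of Cacna1d was -0.66 ± 0.23 SE in the Pcp2-high set (limma, adjusted p = 0.331) and 0.94 ± 0.26 SE in the Pcp2-low set (limma, adjusted p = 0.0322). The difference between the changes was -1.60 ± 0.36 SE (limma, adjusted p = 0.0115), past the threshold in 20 of 20 fits with single arrays left out. With the 4 arrays left out it was -1.03 (limma, adjusted p = 1), and with the 3' over 5' ratio as a covariate -1.49 (limma, adjusted p = 0.0655), and it passed in the other 5 of 7 alternatives. The change within the Pcp2-low set was kept in 2 of 9 fits with single arrays left out, and without the 4 arrays it was 0.37 (limma, adjusted p = 0.929). With the set as a block the change was 0.06 ± 0.25 SE.

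Cacna1b encodes the N-type calcium channel pore of presynaptic terminals. Levels in the Pcp2-high set were 8.92, 8.91, 8.38, 8.53 and 9.10 on isoflurane replicates 1, 3, 7, 8 and 9, against 8.79, 9.09 and 9.40 (lowest, median and highest of 6) on oxygen arrays. Levels in the Pcp2-low set were 10.10, 10.35, 10.04, 10.07 and 9.51 on isoflurane replicates 2, 4, 5, 6 and 10, against 10.00, 9.45, 9.27 and 9.58 on oxygen arrays. The groups overlapped in both sets, and the 4 arrays that stood apart were again above all oxygen arrays of their set. The changes were -0.34 ± 0.15 SE and 0.44 ± 0.18 SE, neither past the threshold (limma, adjusted p = 0.374 and 0.109). The difference between them was -0.78 ± 0.24 SE (limma, adjusted p = 0.0426), and it passed in 5 of 20 fits with single arrays left out. Without the 4 arrays it was -0.28 (limma, adjusted p = 1), and it passed in 4 of 9 alternatives. The other tested probe set of Cacna1b had a change of -0.33 in the Pcp2-low set, opposite in sign to that of the brightest, and a difference between the sets of -0.33 ± 0.52 SE (limma, adjusted p = 0.722).

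In the Pcp2-high set no channel gene passed, and limma called 0 of 18625 probe sets (0%). At an unadjusted p under 0.05 there were 2376 probe sets, 1573 lower and 803 higher, and 6 channel genes, all 6 of them lower after isoflurane. The median change of the 18 genes was -0.19, against -0.00 for all tested probe sets. Besides Cacnb3, Cacna1d and Cacna1b these were Cacna1a, the P/Q-type pore of Purkinje cells and terminals (-0.45 ± 0.18 SE), Cacna1c, an L-type pore (-0.28 ± 0.10 SE), and Cacna2d3, an alpha2delta subunit (-0.22 ± 0.09 SE). Their adjusted p-values ran from 0.331 to 0.374. No tested channel gene had isoflurane and oxygen arrays of this set that did not overlap, as was so for 0.408% (higher) and 0.58% (lower) of all tested probe sets.

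**Figure D3:**
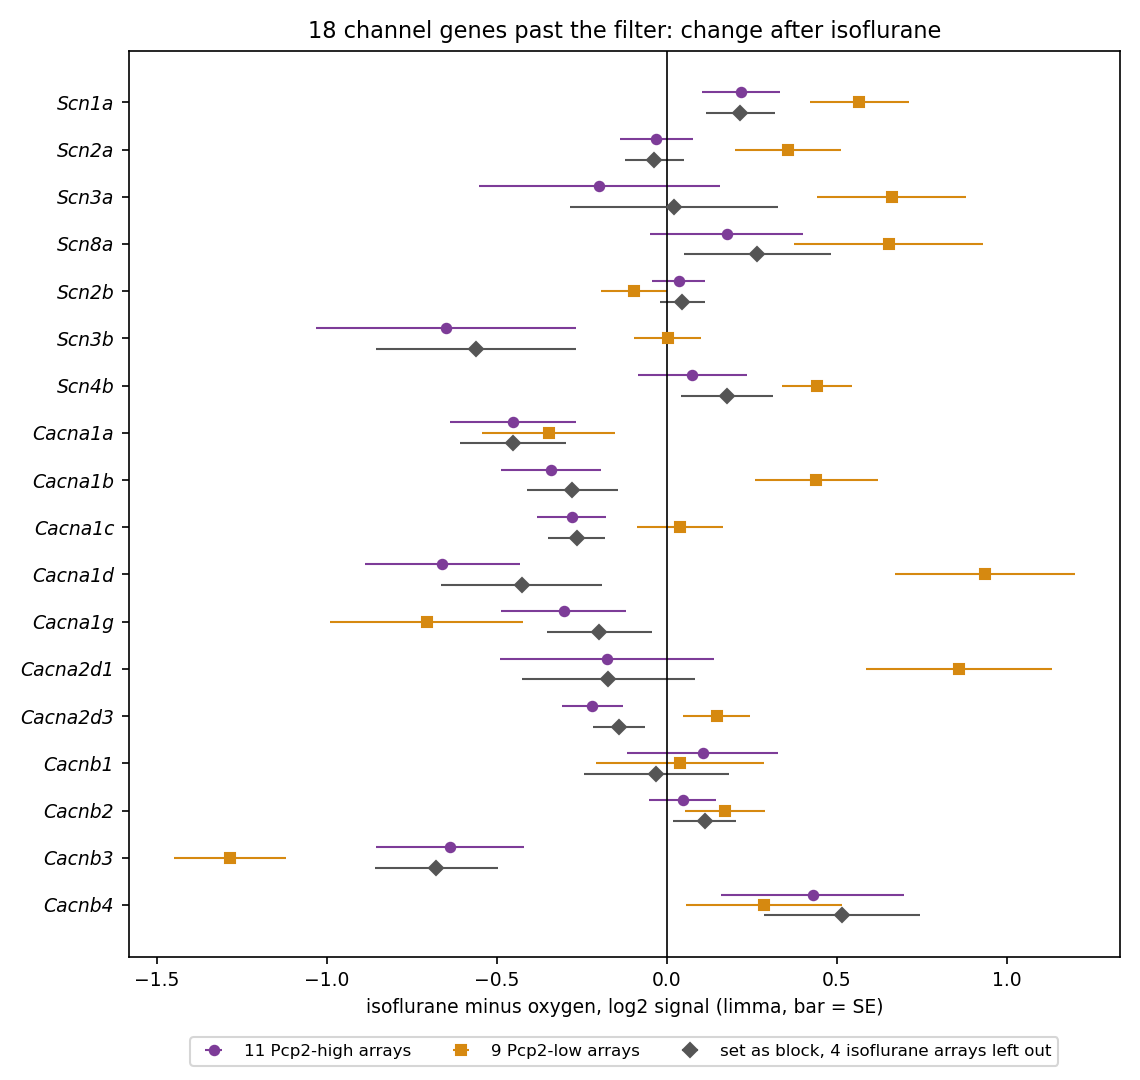
Change after isoflurane (isoflurane minus oxygen, log2 signal) of the 18 tested channel genes within the 11 Pcp2-high arrays (circles), within the 9 Pcp2-low arrays (squares) and over both sets with the set as a block and isoflurane replicates 2, 4, 5 and 6 left out (diamonds). Bars are 1 SE from limma. Cacnb3 lies below 0 in all 3 fits, and Cacna1d lies at -0.66 in the circles and at 0.94 in the squares.

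The remaining tested members had blocked changes between -0.48 and 0.39 that did not pass the threshold. Among sodium channel pores these were Scn2a (0.14), the main pore of excitatory axons, Scn3a (0.19), a pore best known from the developing brain, and Scn8a (0.39), the pore of mature axon initial segments and nodes. Among sodium channel beta subunits they were Scn2b (-0.02) and Scn3b (-0.36). Among calcium channel pores they were Cacna1a (-0.41, limma, adjusted p = 0.0593), Cacna1c (-0.14) and Cacna1g (-0.48, limma, adjusted p = 0.0833), a T-type pore of rhythmic firing. The blocked change of Cacna1a ran from -0.55 to -0.36 over 10 alternatives and passed in 5 of them (limma, adjusted p from 0.0256 to 0.48). That of Cacna1g passed in 1 of 11 alternatives (limma, adjusted p from 0.033 to 0.527), and its change in the Pcp2-low set in 2 of 9. Scn4b (0.24) and the alpha2delta genes Cacna2d1 (0.29) and Cacna2d3 (-0.06) did not pass over both sets either. Of the beta subunits other than Cacnb3, Cacnb1 changed by 0.08, Cacnb2 by 0.10 and Cacnb4, a beta subunit of cerebellar neurons, by 0.36, none past the threshold. With its probe sets averaged, Cacnb1 stood at -0.48 in the Pcp2-low set (limma, adjusted p = 0.0318). Within the Pcp2-low set or in the interaction, Cacna1c, Cacna2d3, Scn2a, Scn3a and Scn8a passed with array weights.

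Other tested probe sets differed from the brightest one for several genes. Another probe set of Cacnb1 averaged 5.12 ± 1.70 (SD, n = 5) after isoflurane and 7.01 ± 1.16 (n = 6) after oxygen in the Pcp2-high set, and 8.53 ± 0.25 (n = 5) and 9.53 ± 0.27 (n = 4) in the Pcp2-low set. Its blocked change was -1.50 ± 0.44 SE (limma, adjusted p = 0.0436), and its change in the Pcp2-low set was -1.005 ± 0.17 SE (limma, adjusted p = 0.0075). The Cacnb1 probe set brightest over all arrays stood at 0.04 ± 0.25 SE there. Within the Pcp2-low set that probe set was the dimmer one, averaging 8.15 after isoflurane and 8.12 after oxygen. Of 4 tested probe sets of Cacna1a, 1 passed in the blocked fit, at -0.72 ± 0.19 SE (limma, adjusted p = 0.0277), and the other changes ran from -0.41 to -0.26. The other tested probe set of Scn3b stood at 0.11 in the blocked fit and at 0.87 in the Pcp2-low set (limma, adjusted p = 0.0605), against -0.36 and 0.00 for the brightest, and that of Scn2b at 0.50 and 0.89 (limma, adjusted p = 0.087 in the Pcp2-low set), against -0.02 and -0.10. None of these values of Scn2b and Scn3b passed the threshold. Without the 4 arrays the called probe sets stood at -1.62 for Cacnb1 and -0.64 for Cacna1a (limma, adjusted p = 0.21 and 0.18).

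The 15 members below the filter were the pores Scn4a, Scn7a, Scn9a, Scn10a and Scn11a, known from muscle, glia and sensory neurons, the R-type pore Cacna1e, the T-type pores Cacna1h and Cacna1i, the L-type pores Cacna1f of the retina and Cacna1s of skeletal muscle, and the gamma subunits Cacng1, Cacng4, Cacng5, Cacng6 and Cacng7, some of which also act on AMPA receptors. In a fit without the filter the blocked changes of none of them passed (limma, adjusted p from 0.203 to 0.956). Cacna1e was 6.34, 6.23, 6.82, 6.00 and 5.73 on the isoflurane arrays of the Pcp2-low set, against 4.84, 4.87, 3.35 and 2.44 on its oxygen arrays. All 5 isoflurane arrays were thus above the oxygen arrays there, by 2.35 (limma without the filter, adjusted p = 0.019), at levels that lie below the filter on most arrays. In the Pcp2-high set the change of Cacna1e was -0.35. The difference between the sets passed without the filter for Cacna1e (-2.70, limma, adjusted p = 0.029) and for Cacna1h (-2.09, limma, adjusted p = 0.029). In the Pcp2-low set Cacna1h was at 8.54 to 8.70 on the 4 arrays that stood apart and at 7.81 on replicate 10, against 7.27 to 8.08 on oxygen arrays. The fits without the filter were not repeated without the 4 arrays. The share of all probe sets that passed in these fits is not given here.

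The Pcp2-high and Pcp2-low sets also differed in the levels of these genes, with Cacna1g and Cacna1a higher and Scn3b and Scn3a lower in the Pcp2-high set. Since a measured gene parts the sets, these values are a description and have no test. Of the 18 tested genes, 8 differed by at least 1 on the log2 scale between the means of the sets, as did 15.6% of all tested probe sets. On average 6 genes were higher in the Pcp2-high set and 12 were lower, with a median difference of -0.47, against 0.10 for all tested probe sets. For 3 genes every Pcp2-high array lay above every Pcp2-low array, as was so for 9.47% of all tested probe sets, and for 3 every Pcp2-high array lay below, as for 9.34%. Among isoflurane arrays alone 4 genes lay wholly above and 9 wholly below (19.8% and 16.2% of all tested probe sets), and among oxygen arrays alone 5 lay above and 4 below (18.2% and 14.7%). Of the 18 genes, 17 averaged above the filter in each set, and Scn8a did so in the Pcp2-low set alone.

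The 3 genes higher in the Pcp2-high set were Cacna1g, Cacna1a and Scn2b. Cacna1g ranged from 8.79 to 9.74 on Pcp2-high arrays and from 6.60 to 8.13 on Pcp2-low arrays, a mean difference of 1.68 (1.82 among isoflurane arrays and 1.42 among oxygen arrays). Cacna1a, the pore gene mutated in episodic ataxia, ranged from 8.10 to 9.27 on Pcp2-high arrays and from 6.72 to 7.63 on Pcp2-low arrays, a difference of 1.52. Scn2b, which links the sodium channel to extracellular proteins, ranged from 12.31 to 12.69 on Pcp2-high arrays and from 11.45 to 11.87 on Pcp2-low arrays, a difference of 0.76. Cacnb4 was higher by 1.49, with ranges that overlapped over both groups (7.87 to 9.62 on Pcp2-high arrays and 6.73 to 8.08 on Pcp2-low arrays) but not within the isoflurane arrays or within the oxygen arrays.

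The 3 genes lower in the Pcp2-high set were Scn3b, Scn3a and Cacna2d3. Scn3b, a sodium channel beta subunit, ranged from 7.05 to 9.29 on Pcp2-high arrays and from 11.12 to 11.55 on Pcp2-low arrays, a mean difference of -3.29. Scn3a ranged from 5.31 to 7.77 on Pcp2-high arrays and from 8.49 to 10.09 on Pcp2-low arrays, a difference of -2.91. Cacna2d3 ranged from 9.68 to 10.26 on Pcp2-high arrays and from 11.13 to 11.54 on Pcp2-low arrays, a difference of -1.42. Cacna1h, below the filter on average, also had no overlap, with 2.79 to 6.80 on Pcp2-high arrays and 7.27 to 8.70 on Pcp2-low arrays (difference -2.94). Cacna2d1 (-1.45) and Scn4b (-1.01) were lower in the Pcp2-high set on average and overlapped. Scn2a (0.21) and Cacnb2 (0.07) lay closest to equal among the tested genes, with Scn8a (-0.15).

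**Figure D4:**
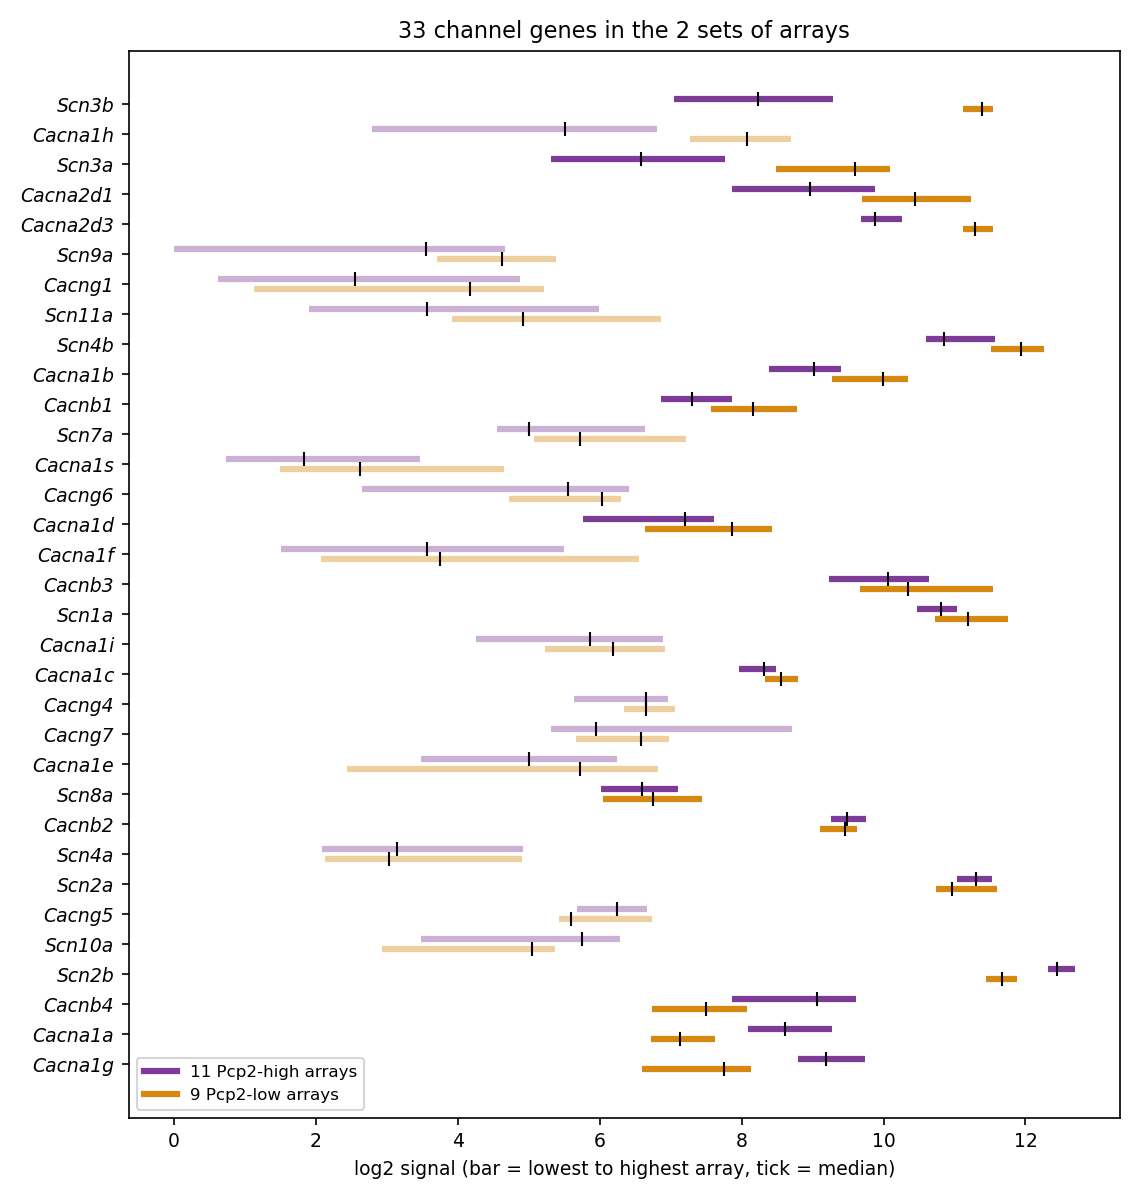
Range of log2 signal of each of the 33 channel genes over the 11 Pcp2-high arrays and over the 9 Pcp2-low arrays, in order of the difference between the sets. Bars run from the lowest to the highest array, ticks are medians, and pale bars are the 15 genes below the filter on low signal. The bars do not overlap for Scn3b, Cacna1h, Scn3a and Cacna2d3 (lower in the Pcp2-high set) or for Scn2b, Cacna1a and Cacna1g (higher in it).

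The summed level of 7 cortical projection neuron markers was 10.19 to 10.90 on Pcp2-high arrays and 12.37 to 12.72 on Pcp2-low arrays, and that of the 8 cerebellar markers was 15.89 to 16.35 and 10.36 to 13.08. The higher cerebellar sum within the Pcp2-low set, 13.08, was that of isoflurane replicate 10. This array was also the isoflurane array of its set with the lowest Cacna2d1, Cacna1d, Cacna1b and Scn1a and the highest Cacnb3. Isoflurane replicate 9 was, within the Pcp2-high set, the isoflurane array with the highest Cacnb3, Cacna2d1, Cacna1d and Cacna1b and the lowest Scn1a.

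Among genes whose products act on these channels or clear calcium, 6 of 43 tested passed in the blocked fit and all 6 were lower after isoflurane, against 4.79% of all tested probe sets for lower. Of 10 tested partners of calcium channels (small GTPases, active zone proteins and anchoring proteins), 3 fell and none rose, against 7.37% of all tested probe sets in either direction. These were Stac2, an adaptor of L-type channels (-0.90 ± 0.21 SE, limma, adjusted p = 0.0183), Rims1, an active zone protein that tethers calcium channels near vesicles (-0.43 ± 0.12 SE, limma, adjusted p = 0.0399), and Cbarp, a protein that binds beta subunits and lowers calcium current (-0.50 ± 0.15 SE, limma, adjusted p = 0.0422). The median change of the 10 was -0.34. In the Pcp2-low set Stac2 fell by 1.45 and Rims1 by 0.66, while Rims2, its close relative, rose by 0.66 (limma, adjusted p = 0.0085, 0.039 and 0.0239). Of all 43 genes 9 passed in that set (20.9%), 5 lower and 4 higher, near the 18.6% of all tested probe sets. In the Pcp2-high set none of the 43 passed, as was so for all tested probe sets.

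Of 13 tested partners of sodium channels at the axon initial segment, 1 fell and none rose, a share near that of all tested probe sets (7.37% in either direction). This was Sptbn4, the spectrin of axon initial segments and nodes (-0.32 ± 0.07 SE, limma, adjusted p = 0.0126). In the sodium leak channel complex, which carries a resting sodium current, 1 of 5 fell and none rose, against 7.37% of all tested probe sets in either direction. The gene that fell was Nalf2, an auxiliary subunit, at -0.67 ± 0.10 SE (limma, adjusted p = 0.0032). Unc79, a scaffold of the same complex, rose by 0.80 within the Pcp2-low set (limma, adjusted p = 0.0237), and its change differed between the sets (-1.03, limma, adjusted p = 0.0139). Of 15 tested genes of calcium extrusion and store release, 1 fell in the blocked fit, again near the share of all tested probe sets: Slc24a3, a potassium-dependent sodium/calcium exchanger (-0.31 ± 0.06 SE, limma, adjusted p = 0.0121). Without isoflurane replicates 2, 4, 5 and 6 none of these 6 passed, with values from -0.60 for Nalf2 and Cbarp to -0.23 for Rims1 and adjusted p from 0.112 to 0.325. The blocked change of Unc79 was 0.24 with these arrays and -0.16 without them, and that of Rims2 was 0.36 and 0.24, none past the threshold.

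Of 47 tested markers of cell types in the Pcp2-low set, 9 passed (19.1%), 6 lower and 3 higher. This was near the share of all tested probe sets, 18.6% (7.42% lower and 11.2% higher). In that set 1 of 3 tested choroid plexus markers passed, Ttr (-2.97, limma, adjusted p = 0.0179), and the summed level of 4 choroid plexus genes was 8.97 to 9.38 on isoflurane replicates 2, 4, 5 and 6 and 10.10 on replicate 10, against 9.94 to 13.72 on oxygen arrays. Of 6 tested cortical projection neuron markers, Neurod6 fell by 0.77 and Rorb rose by 1.67 (limma, adjusted p = 0.0071 and 0.0082). Of 5 astrocyte markers, Gfap fell by 0.78 and Aldh1l1 by 0.51, and of 5 microglia markers Csf1r fell by 0.56 (limma, adjusted p = 0.0132, 0.0441 and 0.0221). No oligodendrocyte, endothelial, cerebellar, striatal or muscle marker passed there. In the Pcp2-high set no marker passed. In the blocked fit without isoflurane replicates 2, 4, 5 and 6 none of the 47 passed, in a fit that called 0 of 18625 probe sets. The part of tissue composition and RNA quality in the changes of the channel genes within the Pcp2-low set was not tested.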

How the data were processed

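Gene expression was measured on 20 Affymetrix rat arrays, 1 per rat. The deposited values are linear array intensity values, made by the authors, whose processing notes, as submitted, name MAS5 and the Affymetrix Expression Console. Their settings are not given in the sources used here. All arrays had been scaled alike, with a mean after trimming 2% at each end of 500.1 to 500.2 on every array, so a change is a change against the array's own mean. Detection calls were not used here. The number of arrays limits the precision.

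Values under 1 were raised to 1 and log2 was taken. Probe sets with a mean above the 40th percentile of the 31042 that are not controls (18625) were tested. A platform annotation gave 1 symbol to 20826 probe sets, several to 436 and none to 9780, and the last 2 kinds stayed unnamed. Symbols were brought to RefSeq's by gene ID (GRCr8), and RefSeq also gave the promoter windows. The tests were limma fits (limma 3.58.1, R 4.3.3; lmFit and eBayes with an intensity trend, two-sided, isoflurane minus oxygen), with the array set as a block, within each set, and for the interaction, which is the change in the Pcp2-high set minus that in the Pcp2-low set. Both groups fell in both sets (Fisher's exact test, p = 1). Summaries used Python 3.11.15 with pandas 2.3.3, numpy 2.4.6 and scipy 1.17.1, and plots used matplotlib 3.10.9. The limma fits were tested on simulated data.

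The members, the lists of partners and markers, the tests and the array sets were chosen with earlier results of these data known. Described in full are Cacnb3 and every member past the threshold in a fit. Between sets the rule took up to 5 members each way whose ranges do not overlap, and for partners up to 4 past the threshold per list. The probe sets of Cacnb1, Cacna1a, Cacna1b, Scn2b and Scn3b other than the brightest, the member Cacna1e, the partners Rims2 and Unc79 and the single markers given with values were named after their values were seen. Alternatives covered normalization, pseudocount, filter, array weights, the replicate number, the 3' over 5' ratio, the probe set of a gene and left-out arrays.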

Additional observations from a re-analysis of the deposited data

Results flagged for a closer look

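Each of the 18 tested channel genes was screened for an array far from the others in each of the 4 combinations of group and set, and 8 of 72 combinations held an array beyond Dixon's critical value, where chance gives about 1 in 20. Of these, 6 concern isoflurane replicates 9, 10 and 1. On isoflurane replicate 9 of the Pcp2-high set Cacnb3 was highest at 10.64 (the other isoflurane arrays of the set lay between 9.23 and 9.57), Cacna1g was highest at 9.73 (others 8.79 to 9.04) and Scn1a was lowest at 10.61 (others 10.90 to 10.96). On isoflurane replicate 10 of the Pcp2-low set Cacna2d1 was lowest at 9.83 (others 10.90 to 11.24) and Cacnb3 was highest at 10.35 (others 9.67 to 9.86). On isoflurane replicate 1 of the Pcp2-high set Cacna1d was lowest at 5.76 (others 6.82 to 7.21). Among oxygen arrays, Scn2a was lowest on replicate 4 of the Pcp2-low set at 10.74 (others 10.93 to 10.97), and Scn4b was highest on replicate 10 of the Pcp2-high set at 11.57 (others 10.60 to 10.90).

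The change after isoflurane differed between the Pcp2-high and Pcp2-low sets by the interaction in limma for Cacna1d (-1.60, adjusted p = 0.0115) and Cacna1b (-0.78, adjusted p = 0.0426). Both lost the call without isoflurane replicates 2, 4, 5 and 6.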

How the results depend on the processing

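The count of called probe sets and of called channel genes depended on which arrays were used. In the blocked fit (1372 probe sets, 2 channel genes) the counts were 0 and 0 with the 4 isoflurane arrays that stand apart left out, 74 and 0 with no set term, and 29 and 0 with the replicate number as a block, under which Cacnb3 stood at -0.93 (limma, adjusted p = 0.0697). At an unadjusted p under 0.05 these 3 fits held 3016, 2941 and 4072 probe sets and 5, 3 and 6 channel genes. Same-numbered rats did not deviate together, with correlations from -0.26 to 0.23 once group and set means were removed. The labels state no pairing, and whether same-numbered rats shared any handling cannot be told from these correlations. With array weights the Pcp2-high set held 1075 called probe sets and 1 channel gene. The Pcp2-low set held 6787 and 10, and the interaction 5815 and 6. The blocked fit with array weights held 4 channel genes. Its count over all probe sets is not given here, so the 4 cannot be set against it. In the Pcp2-low set (3469 and 5) the 3' over 5' covariate gave 1111 and 1, the remaining gene being Cacnb3 at -1.09, centring on medians gave 5243 probe sets, and leaving out the 4 arrays, which was chosen after seeing the data and leaves a lone isoflurane array assumed to vary like the oxygen arrays, gave 0 and 0 (876 probe sets and 2 channel genes at an unadjusted p under 0.05). Cacna2d1 then turned to -0.16. In the interaction (1897 and 2) the 3' over 5' covariate gave 104 and 0, leaving out the 4 arrays 13 and 0, centring 3899 probe sets, with 1059 lower and 2840 higher in place of 1417 and 480, and the filter at the 60th percentile 1037 and 1. Quantile normalization gave 1 channel gene in the interaction, beside 1109 probe sets lower and 633 higher. With no filter all 33 channel genes were tested and 4 passed there, Cacna1b, Cacna1d, Cacna1e and Cacna1h. With a gene's probe sets averaged 0 passed (4 at an unadjusted p under 0.05). Counts over all probe sets without the filter or with averaging are not given here. With centring the blocked split was 1175 lower and 304 higher in place of 892 and 480.

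With single arrays left out, called probe sets ran from 480 to 2938 (blocked), 0 to 1086 (Pcp2-high), 1606 to 6266 (Pcp2-low) and 1109 to 4303 (interaction), and called channel genes from 1 to 4, 0 to 1, 2 to 8 and 1 to 5. The highest blocked count came without isoflurane replicate 9 and the highest Pcp2-low and interaction counts without isoflurane replicate 10. The median change of the 18 genes with the set as a block was 0.07 and ran from 0.00 to 0.10 there. Of 214 values of the 6 named genes under the other alternatives, 184 stayed on the same side of the threshold. Of the rest, 25 lost the call, 4 gained it and 1 called value, that of Cacna2d1, turned sign. The 214 cover all 4 fits of each gene, also those not called at first, so the 184 do not measure how steady the calls were. Called values passed in 4 of 9 alternatives at the least (Cacna1b, interaction) and in 8 of 9 at the most (Cacnb3, Pcp2-low set). Of the 184, 14 turned sign without passing the threshold either way, among them the blocked changes of Cacna1b (to -0.28), Cacna1d (to -0.43) and Cacna2d1 (to -0.17). The causes of these shifts were not tested. Levels near background cannot be told from absence on these arrays.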
